A study of Mus musculus with 6 samples.

Results

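Day 12 of differentiation was set against day 9 in mouse primordial germ cells made in culture. The comparison takes in 6 of the 6 samples of the series, 3 from each day, and each day 12 sample was matched to the day 9 sample that carried the same vector (control, sh1 or sh2). Every sample came from male embryonic stem cells of a mixed C57BL/6 and 129SV background with an Oct4-GFP transgene, which reports activity of Pou5f1 (Oct4), a gene of pluripotent cells and germ cells. On each day 1 sample carried the control vector and 2 carried a short hairpin vector that knocks down Dazl, an RNA-binding protein of germ cells; all vectors, the control included, also held tdTomato. After removal of feeder cells, cultures were kept on gelatin in differentiation medium for 9 or 12 days. They were then taken apart with enzymes and sorted for GFP and tdTomato together. The sort thus aimed at cells with the reporter still active, and its purity was not tested here. Most pairs are therefore knockdown pairs: 2 of the 3 lack most of their Dazl, and only 1 is a control pair. No label names separate cultures, and a p-value here reflects the spread among these 6 samples and no more, which may be technical. Each day's arrays lay on 1 slide of their own with 1 scan, and the vectors took positions 2, 3 and 4 on both slides, and an effect of the slide cannot be told apart from that of the day.

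Primordial germ cells are the embryonic founders of eggs and sperm. After their specification they keep a pluripotency network running, erase much of their DNA methylation, and then switch on genes of the germ line, among them the piRNA pathway, which silences transposons, and the meiotic chromosome axis. Many germ line genes are held silent by promoter methylation in other cells, and an unusual share of them lies on the X chromosome.

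Labelled RNA was hybridised to Agilent 1-colour arrays, 1 per sample. The level of a gene is given as the log2 signal of its brightest probe minus the 75th percentile of its array, so a level of 0 stands at that percentile, and a day difference is the day 12 level minus the day 9 level. The 75th percentile itself lay between 629 and 745 signal units, and 70.3% to 73.3% of the probes of an array were well above background. The knockdown target was read first: Dazl stood at 1.32 and 2.58 in the control samples of day 9 and day 12, and between -3.05 and -1.84 in the 4 hairpin samples. Its day difference was 0.84 (SE 0.19, n = 3 pairs) and did not pass (limma adjusted p = 0.110). Pou5f1, whose reporter set the gate, stood at 4.01 ± 0.46 (SD, n = 3) on day 9 and 4.03 ± 0.38 (SD, n = 3) on day 12. The sort itself favours such a steady level. Dppa3, an early germ cell gene, stood at 3.61 ± 0.33 and 3.30 ± 0.62, and Kit, the receptor that germ cells need for survival, at 2.24 ± 0.05 and 2.41 ± 0.15 (SD, n = 3 each). Nanos3, another early germ cell gene, was dim at -4.52 ± 0.58 and -4.23 ± 0.14 (SD, n = 3 each). In sorted bulk samples a change in the share of cells that express a gene and a change in RNA per cell cannot be told apart.

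Of 20223 genes tested with limma, matched by vector, 328 (1.62%) passed an adjusted p of 0.05. Far more rose than fell: 290 genes (1.43%) were higher on day 12 and 38 (0.188%) were lower, and 263 and 27 of these differed at least 2-fold. All 328 moved the same way in all 3 vector pairs, which the matched test favours. Each array was centred on its own 75th percentile, which draws this balance toward 0 without fixing it. The median difference of all genes was then 0.00 and 50.4% lay above 0. Most genes that rose were dim on day 9: their median day 9 level was -5.31 against -1.01 for all genes, and 52 of them were not well above background on any day 9 array. Those 52 passed the filter, at least 2 arrays well above background, through day 12 alone, which favours a rise. With all 6 arrays required, 289 genes were called higher and 57 lower. Counted by probe rather than by test, 115 of 41174 probes (0.279%) were well above background on all 3 day 12 arrays and on no day 9 array, against 24 (0.0583%) the other way round.

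The count rests on the design of the test. Without the match by vector 30 genes passed (0.148%), 24 higher and 6 lower, all 30 of them among the 328. Without the sh2 pair no gene passed, with all 328 keeping their direction, while 745 passed without the sh1 pair and 1101 without the control pair. With normexp background correction 159 passed, and 222 of the 328 kept their sign: 164 of the 164 brighter ones but 58 of the 164 dimmer ones, split at the median level of the called genes, -4.37. Under normexp the median of all genes moved to -0.12, and 259 of the 328 kept their sign relative to it.

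**Figure D1:**
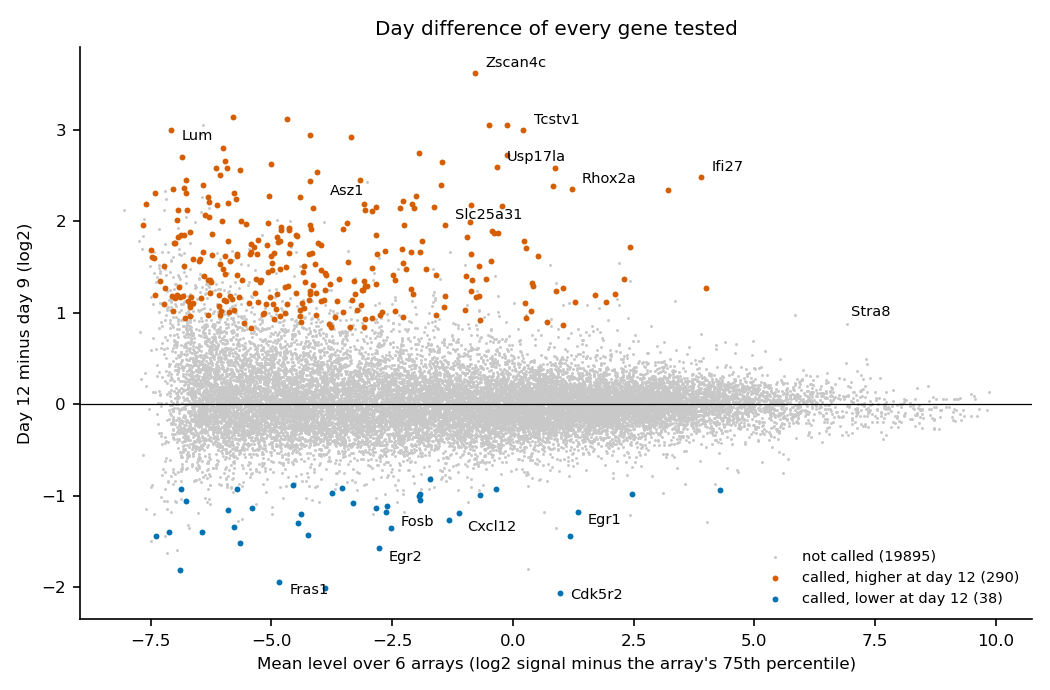
Each point is 1 of 20223 genes, with its mean level over the 6 arrays (log2 signal minus the 75th percentile of the array) on the x axis and its day 12 minus day 9 difference (log2) on the y axis. The 290 genes called higher (orange) lie mostly at low levels, the 38 called lower (blue) lie below 0, and bright genes such as Ifi27 (2.48) and Cdk5r2 (-2.07) are also among those called.

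Germ cell genes stood higher on day 12. Over 4 lists that cover germ cell identity, the piRNA pathway, the synaptonemal complex and meiotic recombination, 71 of 78 tested genes had a positive difference and 11 rose, with none called lower, against 1.43% called higher among all genes. Their median difference was 0.32 (all genes 0.00). The lists here and below were drawn up with earlier results of these data known, so their shares are descriptions and no tests. With normexp 21 of 30 identity genes were above 0 (median 0.19) and 10 of 16 recombination genes (median 0.08), and the medians of the synaptonemal complex and piRNA lists were 0.34 and 0.34. Slc25a31, the ADP/ATP carrier of germ cell mitochondria, stood at -1.27, -2.86 and -3.03 on day 9 in the control, sh1 and sh2 samples. On day 12 it stood at 0.24, -0.89 and -0.63. All 3 pairs went up and the days did not overlap; the control samples were the highest of each day. Slc25a31 rose by 1.96 (SE 0.20, 3.88-fold, limma adjusted p = 0.0154), and it also passed without the match by vector (adjusted p = 0.040).

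Asz1, an ankyrin repeat protein of the germ granules that make piRNAs, stood at -3.05, -4.75 and -3.93 on day 9 and at -1.44, -2.23 and -1.60 on day 12. Again every pair went up, with no overlap between the days. Asz1 rose by 2.16 (SE 0.21, 4.46-fold, limma adjusted p = 0.0142). Sycp1, the transverse filament of the synaptonemal complex that zips paired chromosomes together, stood at -1.91, -3.28 and -4.16 on day 9 and at -1.01, -1.94 and -1.96 on day 12. It was higher on day 12 in each pair, but the control of day 9 lay above both hairpin samples of day 12. Its difference of 1.48 (SE 0.26) missed the threshold (limma adjusted p = 0.0603).

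**Figure D2:**
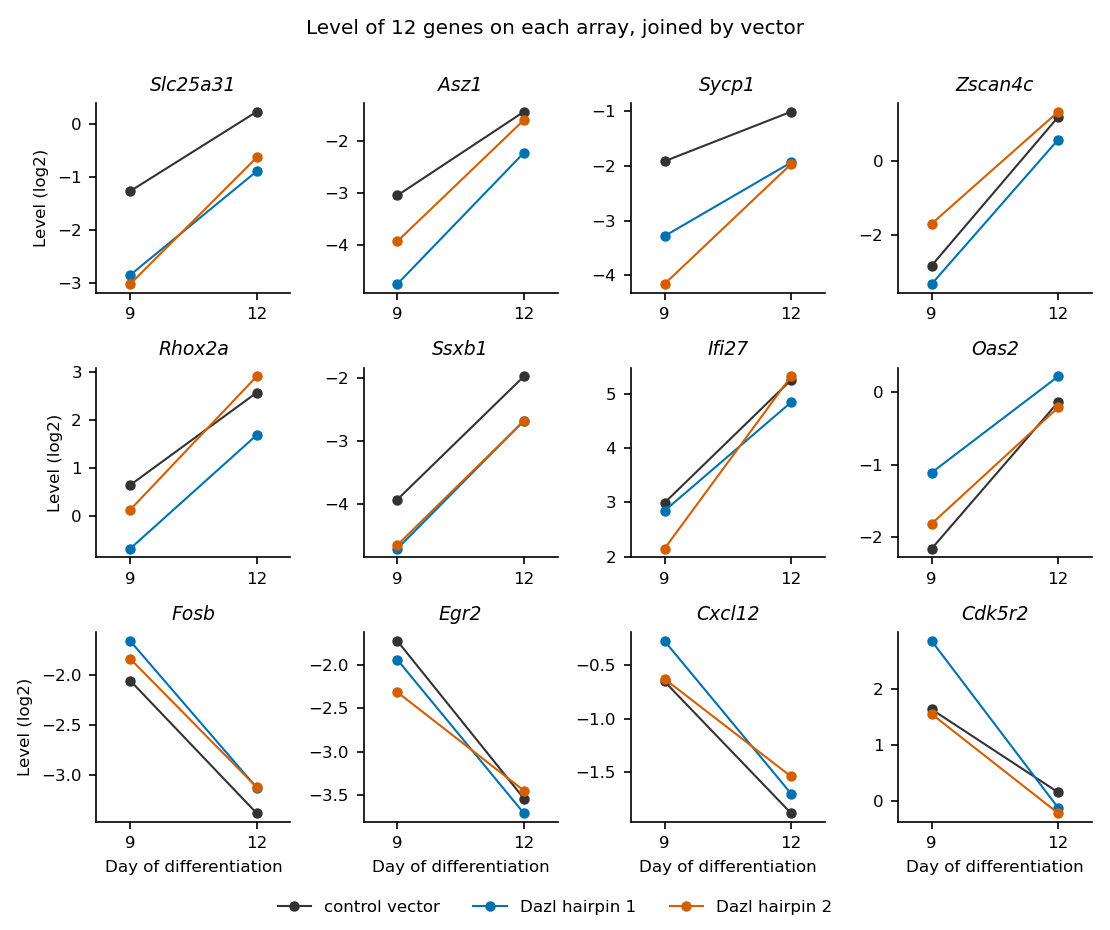
Level of 12 genes (log2 signal minus the 75th percentile of the array) on day 9 and day 12, with 1 point per array and a line joining the samples of 1 vector. Lines run upward in all 3 pairs from Slc25a31 to Oas2 and downward from Fosb to Cdk5r2, and only for Sycp1 do the days overlap.

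Promoters of several germ cell genes share a short motif, which is described here. Whether it bears on the day difference was not tested. The E-box CACGTG, which reads the same on both strands and is bound by the MYC, MAX and MGA family of factors, was searched from 250 bases before to 50 after each start in RefSeq promoters (GRCm38.p6). It was present in 8 of 16 promoters of synaptonemal complex genes (50%) and 11 of 26 of piRNA genes (42.3%). Recombination genes had it in 3 of 14 (21.4%) and germ cell identity genes in 6 of 30 (20%), against 7.15% of all 32851 promoters. Among the promoters of all genes that rose it stood in 8.12%. A gene can have several starts. The 8 promoters belong to 7 of 13 synaptonemal complex genes and the 11 to 9 of 18 piRNA genes. Of the genes with the motif Slc25a31, Taf7l and Fkbp6 rose. None of the 7 synaptonemal complex genes was called, and 1 of them, Syce2 (-0.05), lay below 0. Among the 9 piRNA genes 1 rose and 1, Ddx25 (-0.64), lay below 0. The windows below hold 90 bases each, 5′ to 3′ on the strand of the gene, with the E-box in capitals. They are Slc25a31 at chr3:40708736-40708825 (plus strand), Sycp1 at chr3:102936147-102936236 (minus strand), Fkbp6 at chr5:135350098-135350187 (minus strand) and Taf7l at chrX:134476492-134476581 (minus strand), all GRCm38.p6.
Slc25a31: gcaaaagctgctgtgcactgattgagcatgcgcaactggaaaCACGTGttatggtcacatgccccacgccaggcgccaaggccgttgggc
Sycp1: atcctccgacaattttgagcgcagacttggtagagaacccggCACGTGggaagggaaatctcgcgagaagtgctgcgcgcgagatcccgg
Fkbp6: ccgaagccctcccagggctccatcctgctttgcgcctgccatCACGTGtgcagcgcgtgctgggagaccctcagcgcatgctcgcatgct
Taf7l: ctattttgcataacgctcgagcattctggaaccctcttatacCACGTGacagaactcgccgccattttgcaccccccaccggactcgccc

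Of the germ cell identity list, 28 of 30 tested genes were above 0 (median 0.32) and 5 rose. Beside Slc25a31 these were Rhox13 (1.37, SE 0.18), a homeobox gene of germ cells, Taf7l (1.27, SE 0.13), a germ cell variant of a general transcription factor subunit, and Tex19.2 (1.11, SE 0.17), a paralogue of a transposon control gene, with limma adjusted p of 0.0345, 0.0154 and 0.0481. The other was Tktl2 (1.19, SE 0.17, adjusted p = 0.0430), a dim gene whose sign turned under normexp. Taf7l stood at 0.78, 0.26 and 0.14 on day 9 and at 2.09, 1.57 and 1.34 on day 12 in the control, sh1 and sh2 samples, with no overlap. Tex19.2 stood at 1.96, 1.17 and 0.96 on day 9 and at 2.71, 2.34 and 2.38 on day 12, again without overlap. Stra8, the retinoic acid target that licenses meiosis, stood at 7.16, 6.45 and 5.84 on day 9 and 7.68, 7.45 and 6.94 on day 12. Its difference of 0.87 (SE 0.16) did not pass (limma adjusted p = 0.0711).

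The piRNA list had 19 of 21 genes above 0 (median 0.40) and 5 that rose. Fkbp6, a co-chaperone of piRNA loading, stood at 4.06, 2.93 and 3.12 on day 9 and at 4.90, 4.46 and 4.57 on day 12, with no overlap. It rose by 1.27 (SE 0.18, limma adjusted p = 0.0399). Gtsf1, a zinc finger partner of PIWI proteins, rose by 1.20 (SE 0.16, adjusted p = 0.0325), and Piwil4, the PIWI protein that carries piRNAs into the nucleus, by 1.54 (SE 0.24, adjusted p = 0.0475). Henmt1, which methylates the ends of piRNAs, was not well above background on any day 9 array and was at least 2.51-fold higher on day 12 (adjusted p = 0.0126), though its sign turned under normexp. Ddx4, the germ cell RNA helicase, was at 2.12 ± 0.55 on day 9 and 2.41 ± 0.13 (SD, n = 3 each) on day 12, a difference of 0.30 that did not pass (limma adjusted p = 0.584). Mael (1.16, adjusted p = 0.0536) and Tdrd9 (1.08, adjusted p = 0.0676), both piRNA pathway genes, missed the threshold.

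Structural genes of meiotic chromosomes were above 0 in 12 of 14 cases (median 0.55), and 1 rose. That was Sycp2, a protein of the chromosome axis, at -3.11, -4.22 and -4.59 on day 9 and at -2.10, -2.82 and -2.96 on day 12. It rose by 1.34 (SE 0.17, limma adjusted p = 0.0282), with no overlap of the days. Sycp3, its partner in the axis, differed by 0.31 (SE 0.15, adjusted p = 0.414). Recombination genes were above 0 in 15 of 16 cases with a smaller median of 0.15, and none passed; the nearest was Brdt (0.89, SE 0.14, adjusted p = 0.0515), a chromatin reader of germ cells. Dmc1, the meiotic strand exchange enzyme, and Rec8, the meiotic cohesin, differed by 0.05 (SE 0.13) and 0.03 (SE 0.13). Without the match by vector 1 gene of the identity list and 1 of the piRNA list passed, and none of these other lists did.

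Genes known from the 2-cell embryo, the stage when the zygote genome switches on, showed the largest differences. Of 28 genes on the list 11 were tested, all 11 were above 0, and 8 rose (72.7%, against 1.43% of all genes), with a median of 2.59. This list, like the others, was drawn up with earlier results of these data known, so its share is no test. Zscan4c, a zinc finger protein that marks rare 2-cell-like cells in embryonic stem cell cultures, stood at -2.81, -3.30 and -1.68 on day 9 and at 1.18, 0.57 and 1.32 on day 12. It rose by 3.62 (SE 0.22, 12.3-fold, limma adjusted p = 0.0107), the largest difference of any named gene, with no overlap. Usp17la, a deubiquitinase, stood at -1.02, -2.82 and -1.06 on day 9 and at 1.40, 0.20 and 1.27 on day 12. It rose by 2.59 (SE 0.18, adjusted p = 0.0107).

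Tcstv1 (3.0, SE 0.29) and Tcstv3 (2.73, SE 0.26), which share the 2-cell stage with Zscan4c, rose alike, as did Zfp352 (2.20, SE 0.18), a zinc finger gene. Usp17lb, Usp17lc and Arg2, an arginase, made up the rest, and Tdpoz1 (0.26), Sp110 (0.22) and Zscan5b (0.07) did not pass. The Zscan4, Tcstv and Usp17l genes are families of near-identical copies, so a probe can report several of them. In Zscan4c, Tcstv1, Tcstv3, Usp17la and Zfp352 the sh1 sample was the lowest of both days. None of the 8 passed without the match by vector. With normexp 9 of the 11 were above 0, 5 rose and the median was 0.51.

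**Figure D3:**
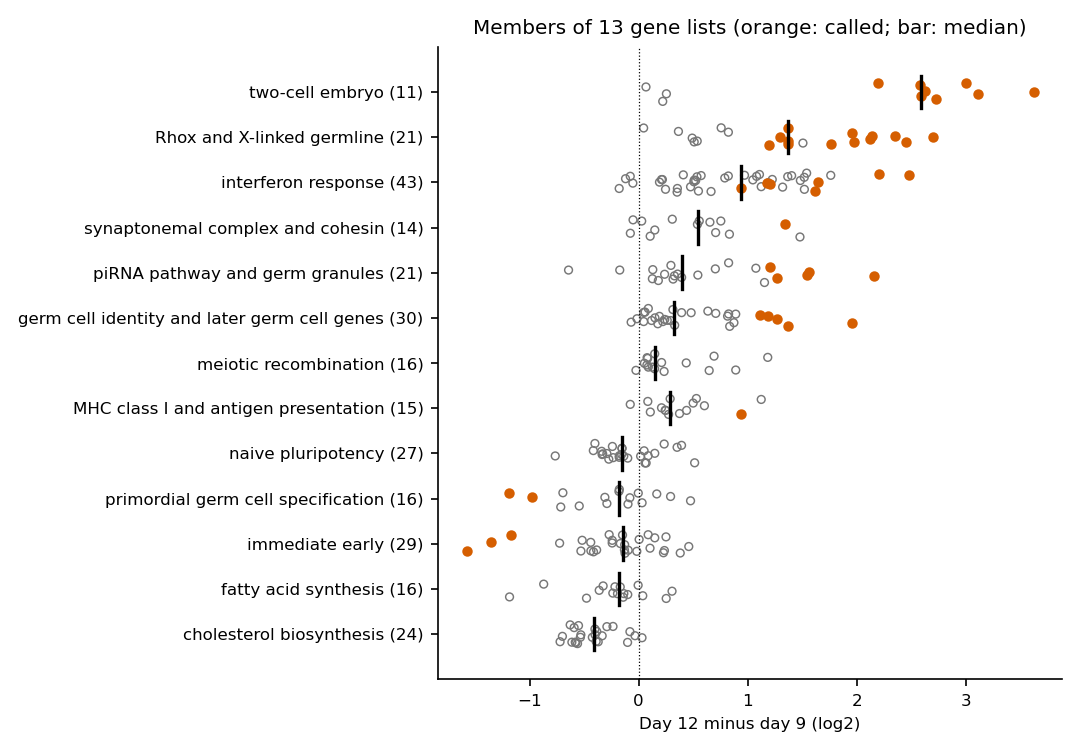
Day 12 minus day 9 difference (log2) of each tested member of 13 lists, with the number of genes in parentheses, called members in orange and the list median as a bar. The 2-cell embryo, Rhox and X-linked germline and interferon lists reach farthest to the right, and 23 of 24 cholesterol genes lie below 0 without a call.

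A larger share of genes was called on the X chromosome than on any autosome. Of 560 X-linked genes tested 40 passed (7.14%) and all 40 rose, 5 of them also without the match by vector, while autosomes had between 0.549% and 2.88% of their genes called. X-linked genes thus made up 14.4% of 277 called genes with a known chromosome, against 3.47% of 16116 tested. The median difference of all 560 genes was -0.01 on these centred arrays. The list of Rhox and other X-linked germ line genes had 21 of 21 tested genes above 0 (median 1.37), and 13 rose. It too was drawn up with earlier results known. Magea8, Magea6 and Magea1, among the 13, passed the filter through day 12 arrays alone, which favours a rise. Where all 6 arrays had to be well above background, 16 of 16 tested genes were above 0 and 11 rose. This list and the chromosome share genes, so they are not separate observations.

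Rhox2a, a homeobox gene of the Rhox cluster, stood at 0.65, -0.67 and 0.14 on day 9 and at 2.57, 1.69 and 2.91 on day 12. It rose by 2.35 (SE 0.19, 5.11-fold, limma adjusted p = 0.0107), with no overlap. Ssxb1, a member of the SSX cancer and germ line antigens, stood at -3.93, -4.70 and -4.64 on day 9 and at -1.98, -2.68 and -2.68 on day 12. Its 3 pair differences were almost equal (1.95, 2.02 and 1.96), and its rise of 1.98 (SE 0.13, adjusted p = 0.0107) held without the match by vector (adjusted p = 0.0224). Nxf2 (1.96, SE 0.14) and Ssxb2 (1.77, SE 0.14), chosen after their values were seen, passed without it too, each with adjusted p = 0.0285; Nxf2 is a germ cell RNA export factor.

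Nxf3, a relative of Nxf2, rose by 2.14 (SE 0.17, adjusted p = 0.0107), and Xlr5c, of the X-linked lymphocyte-regulated family, by 2.19 (SE 0.15, adjusted p = 0.0107). The antigen genes Magea8, Magea6 and Magea1 were well above background on no day 9 array and on 2 of the 3 day 12 arrays. Their day 12 means stood 2.96-fold, 2.86-fold and 2.59-fold above the lowest signal well above background on day 9. Those means include a day 12 array that was not well above background, so the folds are not bounds. Under normexp, where the median of all genes lay at -0.12, the sign of all 3 turned. Copies of the Magea, Ssxb, Xlr and Rhox2 genes are close in sequence and a probe may not separate them. Without the match by vector 4 of the 13 list members passed, and with normexp 15 of 21 were above 0, 4 rose and the median was 0.49. On the Y chromosome, Rbmy, a germ cell RNA-binding protein, rose by 2.45 (SE 0.29, adjusted p = 0.0241).

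**Figure D4:**
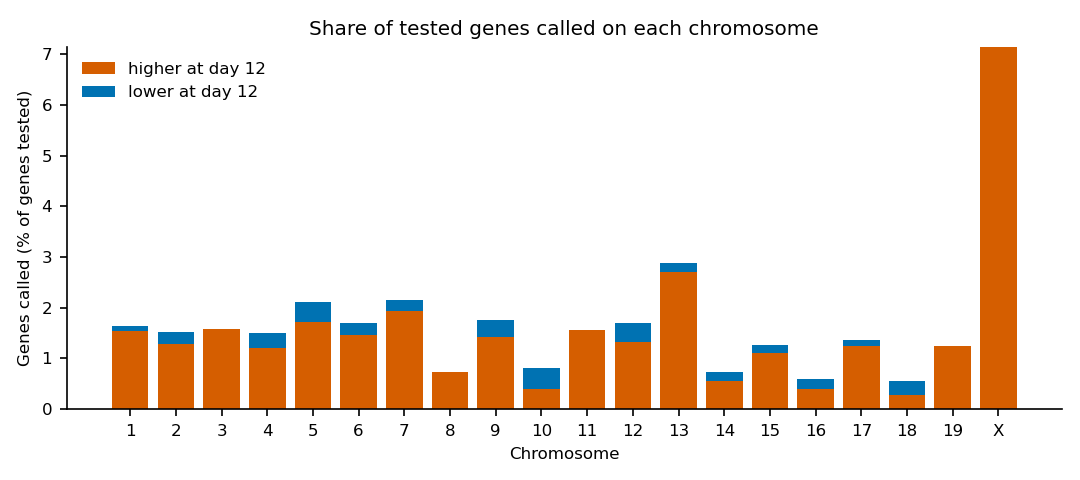
Share of the tested genes of each chromosome called higher (orange) or lower (blue) on day 12, in percent. The X chromosome reaches 7.14% and has no gene called lower, while the highest autosome, chromosome 13, reaches 2.88%.

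Interferon response genes, from a list drawn up with earlier results known, were above 0 in 39 of 43 cases, with a median of 0.94. Of them 7 rose (16.3%, against 1.43% of all genes). These genes are switched on when interferons or sensors of foreign nucleic acid activate STAT and IRF factors. Ifi27, a mitochondrial interferon-induced protein, stood at 2.99, 2.84 and 2.15 on day 9 and at 5.26, 4.85 and 5.32 on day 12. It rose by 2.48 (SE 0.25, 5.59-fold, limma adjusted p = 0.0147), with no overlap, and passed without the match by vector (adjusted p = 0.040). Oas2, a sensor of double-stranded RNA, stood at -2.16, -1.11 and -1.81 on day 9 and at -0.14, 0.22 and -0.21 on day 12. It rose by 1.65 (SE 0.17, adjusted p = 0.0177), again with no overlap.

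Usp18, which removes the ubiquitin-like protein ISG15, rose by 1.62 (SE 0.25, adjusted p = 0.0484), Herc6, which attaches it, by 1.21 (SE 0.14, adjusted p = 0.0234), and Psmb9, a subunit of the immunoproteasome, by 0.94 (SE 0.13, adjusted p = 0.0396). Ifi44 was at least 3.54-fold higher and Ifi204, a DNA sensor, rose by 1.18 (SE 0.17, limma adjusted p = 0.0417). The sign of both turned under normexp, where the median of all genes lay at -0.12. Irf7, a regulator of the response, differed by 1.37 (SE 0.23, adjusted p = 0.0570) and did not pass. In the sh1 pair the list differed less, with a median of 0.48 against 1.07 in the control pair and 1.06 in the sh2 pair. Of the antigen presentation list 14 of 15 genes were above 0 (median 0.29) and 1, Psmb9 again, rose. Without the match by vector only Ifi27 of the interferon list passed, and with normexp 31 of 43 were above 0, 15 rose and the median was 0.34.

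The interferon-stimulated response element was searched in the same promoter windows as TTTCNNTTTC on both strands. It was present in 17 of 37 promoters of the list (45.9%), against 3.44% of all promoters and 6.84% of the promoters of genes that rose. None of the 17 belongs to the 7 interferon genes that rose, of which 3 have a promoter in the table, and 2 of the 17 genes with the element lay below 0. The windows shown are those of the genes with the element and the lowest adjusted p: Irgm1, an immunity GTPase (1.40, SE 0.26, limma adjusted p = 0.0710), Oas1a, a relative of Oas2 (1.32, SE 0.24, adjusted p = 0.0661), and Bst2, which tethers virus particles (0.97, SE 0.18, adjusted p = 0.0708); none of these passed. Each was higher on day 12 in all 3 pairs. Their windows of 90 bases lie at chr11:48871401-48871490, chr5:120907496-120907585 and chr8:71537553-71537642, all on the minus strand of GRCm38.p6. The capitals mark pairs of overlapping matches, which appear here in reverse complement.
Irgm1: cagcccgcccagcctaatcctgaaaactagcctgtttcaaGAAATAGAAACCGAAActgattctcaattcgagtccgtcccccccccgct
Oas1a: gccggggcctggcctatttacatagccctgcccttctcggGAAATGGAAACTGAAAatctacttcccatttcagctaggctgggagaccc
Bst2: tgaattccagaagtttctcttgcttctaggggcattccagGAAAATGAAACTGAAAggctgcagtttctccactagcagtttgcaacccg

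Pluripotency genes did not pass the test. Of 27 tested, 10 were above 0 and 17 below (median -0.15), and the list had no call. Nanog, a core factor of the network, stood at 3.33 ± 0.62 on day 9 and 2.91 ± 0.03 on day 12 (SD, n = 3 each), with pair differences of 0.04, -0.19 and -1.09. Sox2 stood at 3.53 ± 0.27 and 3.36 ± 0.03 (SD, n = 3 each). The pluripotency genes Zfp42 (means of 5.24 and 5.09), Klf4 (4.74 and 4.89) and Esrrb (3.56 and 3.27) also stood high on both days. These 3 were chosen after their values were seen. A gate on the Oct4 reporter also takes in pluripotent cells that did not differentiate, and their share was not tested.

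The list of genes that specify or guide primordial germ cells had 12 of 16 members below 0 (median -0.18), and 2 fell, against 0.188% of all genes. Both are signals that germ cells receive from their surroundings. Cxcl12, the chemokine that guides their migration, stood at -0.65, -0.28 and -0.63 on day 9 and at -1.88, -1.70 and -1.54 on day 12. It fell by 1.19 on the log2 scale (SE 0.16, limma adjusted p = 0.0325), with no overlap. Kitl, the ligand of Kit, stood at -3.32, -3.44 and -3.03 on day 9 and at -4.12, -4.34 and -4.26 on day 12, and fell by 0.98 (SE 0.15, adjusted p = 0.0477). Prdm1, a repressor that specifies the lineage, differed by -0.54 (SE 0.15, adjusted p = 0.177). Neither fall passed without the match by vector (adjusted p of 0.0753 and 0.105).

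Immediate early genes, which growth factor signals switch on within minutes, held 3 of the 38 genes that fell (3 of 29 members, 10.3%, against 0.188% of all genes). Egr2 stood at -1.72, -1.94 and -2.31 on day 9 and at -3.54, -3.71 and -3.45 on day 12. It fell by 1.58 (SE 0.18, limma adjusted p = 0.0235), with no overlap. Fosb, a subunit of AP-1, stood at -2.06, -1.66 and -1.84 on day 9 and at -3.38, -3.13 and -3.12 on day 12. It fell by 1.35 (SE 0.13, adjusted p = 0.0143), and passed without the match by vector (adjusted p = 0.0386). Egr1 fell by 1.17 (SE 0.16, adjusted p = 0.0337), from 1.93 ± 0.20 to 0.75 ± 0.13 (SD, n = 3 each). The list as a whole was mixed, with 20 of 29 members below 0 and a median of -0.15, and Fos (-0.72, SE 0.19, adjusted p = 0.154) and Jun (-0.52, SE 0.16, adjusted p = 0.201) did not pass.

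The CArG box, which serum response factor binds, was present in 5 of 30 promoters of this list (16.7%), against 1.63% of all promoters. These 5 promoters belong to 2 of 24 genes: 4 are starts of Egr2 and 1 is that of Zfp36, so the share rests on Egr2. Egr2 is shown since it fell most; its window at chr10:67537757-67537846 (plus strand, GRCm38.p6) has the CArG box in capitals. The cAMP response element TGACGTCA, searched on both strands, was present in 3 of the 30 (10%), against 1.79% of all.
Egr2: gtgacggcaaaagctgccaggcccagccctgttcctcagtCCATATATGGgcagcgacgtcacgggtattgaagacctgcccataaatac

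Outside the lists, the genes that fell most were Cdk5r2, an activator of the kinase CDK5, and Fras1, an extracellular matrix protein of epithelial basement membranes. Cdk5r2 stood at 1.63, 2.85 and 1.55 on day 9 and at 0.16, -0.12 and -0.21 on day 12, and fell by 2.07 (SE 0.30, limma adjusted p = 0.0413). Fras1 stood at -3.61, -3.94 and -4.05 on day 9 and at -5.25, -6.05 and -6.12 on day 12, and fell by 1.94 (SE 0.16, adjusted p = 0.0107). Neither overlapped between days. Il16, a cytokine (fell by 1.43, SE 0.13), and Macc1, a regulator of MET signalling (fell by 1.20, SE 0.13), passed with and without the match by vector, as Fras1 did. Adamts15, a secreted protease (fell by 1.27, SE 0.15), and Crb2, a polarity protein (fell by 1.18, SE 0.14), passed with the match only. Tfap2e fell by 1.45 (SE 0.19) on its brightest probe, while its other probe gave 0.04, so its direction depends on the probe.

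Sterol synthesis genes lay below 0 in 23 of 24 cases with a median of -0.41, yet none passed. Msmo1, an enzyme of the pathway, had a difference of -0.70 (SE 0.15, limma adjusted p = 0.0904). Fatty acid synthesis genes were below 0 in 13 of 16 cases (median -0.18), with Scd1 (-1.18, SE 0.19, adjusted p = 0.0515) and Scd2 (-0.87, SE 0.14, adjusted p = 0.0536), both desaturases, nearest to the threshold. The sterol regulatory element TCACNCCAC was present on either strand in 1 of 19 promoters of the sterol list (5.26%), that of Hmgcs1, and in 1.24% of all promoters.

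Glycolysis and hypoxia genes were below 0 in 21 of 25 cases (median -0.17) and cell cycle genes in 25 of 33 (median -0.12), with no gene called. Imprinted genes were below 0 in 20 of 29 cases with none called; Dlk1, a paternally expressed signalling protein, differed by -1.21 (SE 0.20, limma adjusted p = 0.0534). Oxidative phosphorylation, histone methylation, DNA methylation, apoptosis, heat shock, primed epiblast, Hox, RNA-binding protein, retroviral control, nucleic acid sensor and BMP, Nodal and WNT lists had no called gene, and their medians lay between -0.04 and 0.21. The highest was that of the Hox list, which turned to -0.24 under normexp, with 3 of 19 genes above 0 in place of 12.

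Markers of other cell types that a sort could carry along were counted over 9 lists with 190 tested genes. Of these 4 (2.11%) were called, 2 in each direction, against 1.43% called higher and 0.188% called lower among all genes. The share called lower was thus above that of all genes and the share called higher was below it, with 2 genes each. Lum, a matrix proteoglycan of fibroblasts, stood at -9.02, -7.03 and -6.16 on day 9, where 1 array was well above background, and at -5.87, -4.74 and -3.20 on day 12, and rose (limma adjusted p = 0.0107). Its size rests on values near background on day 9, and against the lowest signal well above background it was 4.35-fold. Tie1, a receptor of endothelium, rose by 1.79 (SE 0.26, adjusted p = 0.0399), while Foxa3 of endoderm fell by 1.16 (SE 0.15, adjusted p = 0.0331) and Myl2 of heart muscle by 1.30 (SE 0.19, adjusted p = 0.0429).

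The summed level of most lists overlapped between the days. The summed level of the 31 fibroblast genes, as signal over the 75th percentile, was 205 to 263 on day 9 and 244 to 299 on day 12, and other members had differences of both signs without passing. Col6a3 had a difference of 1.25 (SE 0.21, adjusted p = 0.0550), Dcn of 1.09 (SE 0.24, adjusted p = 0.104) and Col1a2, a main collagen, of -1.35 (SE 0.25, adjusted p = 0.0711). For 29 endoderm genes the summed level was 258 to 295 on day 9 and 163 to 256 on day 12. It was the only one of the 9 sums without overlap, by a narrow gap of 256 against 258. A sum weighs bright genes most, and the median difference of the list was -0.05, with 12 genes above 0 and 17 below. With 3 arrays a day and 9 sums, 1 such separation is no test of a loss. Sums of the 15 endothelial genes were 5.59 to 7.51 and 7.01 to 8.32, and those of the 19 heart and muscle genes 8.11 to 9.24 and 6.83 to 10.2. The part of other cells in the gene differences was not tested.

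Some genes were seen on 1 day only, so their size is at best a bound, and they passed the filter through that day alone. Beside Ifi44 and Henmt1, Ptpro, a receptor phosphatase, was at least 3.76-fold higher on day 12, Speer4d at least 3.39-fold and Trim30d at least 3.26-fold. Each was well above background on 3 day 12 arrays and on no day 9 array. These bounds set the day 12 mean against the lowest signal well above background on day 9. Under normexp, where the median of all genes lay at -0.12, the sign of all 3 genes turned. The other probes of Ptpro and Trim30d gave 0.16 and 0.39. In the other direction Dhrs2, a short-chain dehydrogenase, and Corin, a membrane protease, were seen on 2 day 9 arrays and on no day 12 array. Their day 9 means stood 1.39-fold and 1.16-fold above the lowest signal well above background on day 12. Those means include a day 9 array that was not well above background, so the folds are not bounds.

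Whether the day difference itself differed between knockdown and control samples was tested with a 4-group limma fit. The lone control array of a day is assumed in it to vary like the hairpin samples. The arrays were not matched by vector in this fit, so the spread between the 2 hairpins counted as noise. An absence of calls in it therefore does not show that the day difference was alike. No gene of 20223 passed (0%), and 349 had an unadjusted p under 0.05. The median pair difference of the 290 genes that rose was 1.44 in the control pair, 1.51 in the sh1 pair and 1.51 in the sh2 pair, and that of the 38 that fell was -1.20, -1.16 and -1.19. These genes were selected for moving alike in the 3 pairs, so this closeness is no test of it. Lists were not selected that way, and their spread varied. In the control, sh1 and sh2 pairs the synaptonemal complex list had medians of 0.23, 0.43 and 0.83, and the piRNA list 0.49, 0.68 and 0.86. Other lists were closer, such as germ cell identity with 0.40, 0.50 and 0.42, and glycolysis and hypoxia with -0.18, -0.11 and -0.15.

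**Figure D5:**
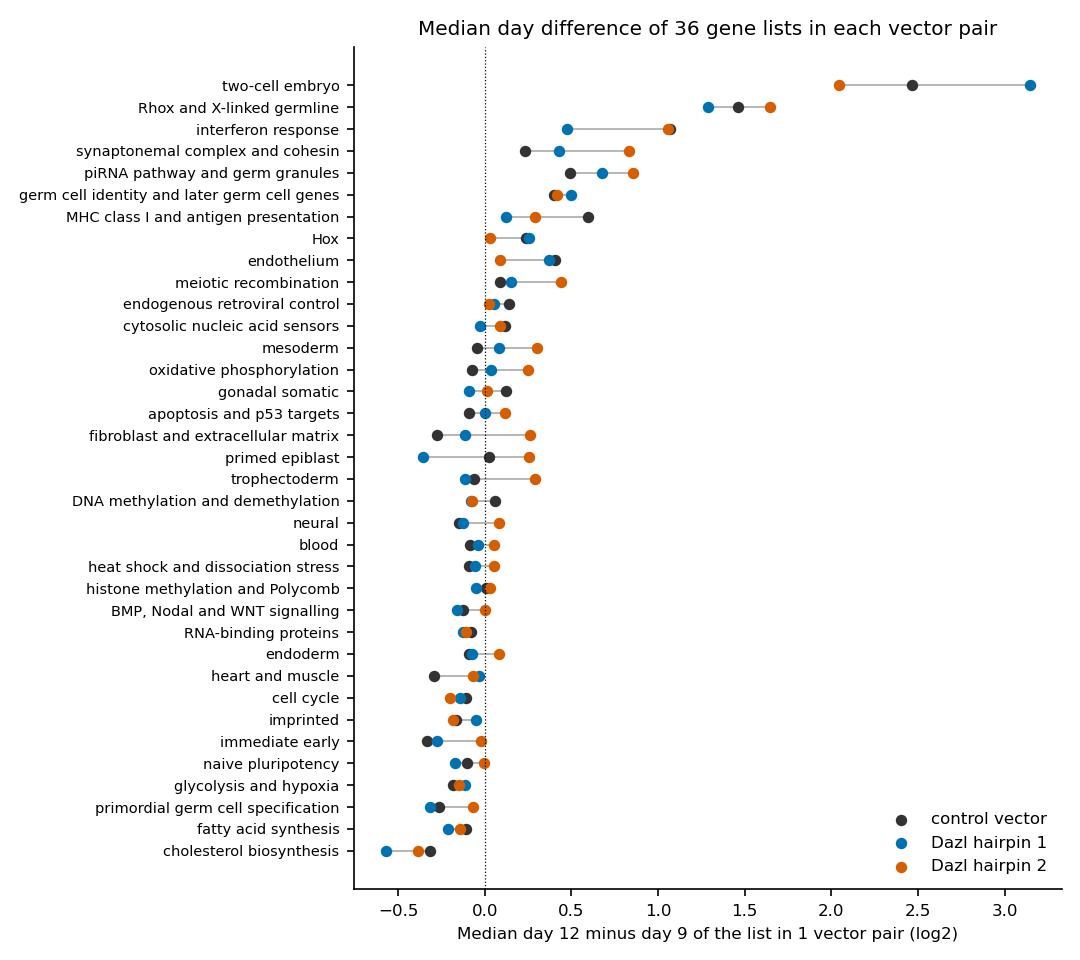
Median day 12 minus day 9 difference (log2) of 36 gene lists in the control, sh1 and sh2 pairs, 1 point per pair, with lists ordered by their fitted median. The 2-cell embryo, Rhox and X-linked germline and interferon lists lie above 0 in all 3 pairs and the cholesterol list below 0 in all 3, while many lists in between have pairs on both sides.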

How the data were processed

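Total RNA of 6 samples was measured on 1-colour arrays. Per the file headers, spot intensity values came from Agilent Feature Extraction 9.1.3.1, which subtracted the background and gave a surrogate value to spots not above it, with no normalization between arrays. The deposited table holds a ratio, the background-subtracted signal over the median of its array, per the file headers. A quality score in the deposited files served only to match its 41529 entries to spots. Intensities were taken to log2 and centred on each array's 75th percentile. The 30190 probes well above background on at least 2 arrays were kept, and the brightest probe stood for a gene.

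limma 3.58.1 in R 4.3.3 fitted vector and day, two-sided, calling genes at a p of 0.05 after Benjamini-Hochberg adjustment. The vector marks 1 cell population at both days, and deviations of same-vector arrays correlated (r of 0.38, 0.54 and 0.26, across genes). On simulated data for this comparison (20223 genes, 200 changed), the fit recovered 74% of the genes changed by 2 and 16% of those changed by 1 on the log2 scale, and 2.17% of calls were false. Chromosomes and promoters came from RefSeq (GRCm38.p6). The members and 36 lists were chosen with earlier results of these data known. Named genes were Slc25a31, Asz1 and Sycp1, up to 12 of largest difference per direction, up to 6 called members or 2 others per list, and up to 4 bounds per direction; others were chosen after their values were seen. The names of the hairpin samples' files carry other hairpin numbers than their labels, the same way on both days; the labels were used. Some named members are not reported here. Alternatives were another background correction, normalization or filter, the mean of probes, the deposited table, another variance prior, no replicate block, and each array left out.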

Additional observations from a re-analysis of the deposited data

Results flagged for a closer look

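In 4 lists, picked by sign alone, the medians of both hairpin pairs lay across 0 from that of the control pair. The sh1 median of apoptosis and p53 targets did so by 0.004 only. The difference in the lists was not tested, and no single gene passed a test of it. Oxidative phosphorylation had a median day difference of -0.07 in the control pair and 0.04 and 0.25 in the sh1 and sh2 pairs, a gap of 0.21 between the mean of the hairpin pairs and the control pair. Apoptosis and p53 targets had -0.09 against 0.00 and 0.12, a gap of 0.15, and mesoderm had -0.04 against 0.08 and 0.30, a gap of 0.23. DNA methylation and demethylation had 0.06 against -0.08 and -0.07, a gap of -0.14. Over all genes the medians were -0.02, -0.01 and 0.07. The test of single genes was not matched by vector, so its lack of calls decides nothing about these gaps.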

How the results depend on the processing

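The matched fit called 328 genes, 290 higher and 38 lower. With no replicate block it called 30, 24 and 6. Normexp gave 159, of which 123 were higher; quantile normalization 216 and 187; no filter 142, 134 and 8; the values the authors deposited gave 195 genes, 171 and 24; another variance prior gave 72 lower. Both arrays of a vector give the same result when left out, since the pair then drops out of the contrast: counts ranged from 0 (without sh2) to 1101 (without control), 0 to 891 higher and 0 to 210 lower. Without replicate sh1 they were 745, 649 and 96. The cause was not tested. The 0 genes called for the knockdown difference stayed 0 in every alternative run; it could not be fitted without a control array. In these alternatives the fit for the knockdown difference was never matched by vector either. The 102 named genes include many that were not called in the matched fit. Of the 56 that were called, 47 lost their call without the block and all 56 without sh2. Named genes that reversed, 17 in all, did so under normexp. It moved the median of all genes to -0.12 and the share of calls that were higher from 88.4% to 77.4%. The reversed genes reported here were Mei4 -0.29, Meox1 -0.26, Foxf1 -0.24, Cer1 -0.19, Henmt1 -0.19, Tktl2 -0.18, Gata4 -0.16 and Speer4d -0.13. With them went Magea1 -0.11, Rasgrf1 -0.10, Ifi44 -0.098, Trim30d -0.094, Magea6 -0.081, Ptpro -0.055, Magea8 -0.046 and Ifi204 -0.040. Under normexp the endothelium list median turned to -0.12. Other list medians that changed sign under normexp were Hox -0.24, gonadal somatic -0.22, mesoderm -0.22, fibroblast -0.13, primed epiblast -0.10, heat shock 0.03 and histone methylation 0.01. Genes near background limit what this comparison can show. Apart from that, all 10 spike-in probes stood higher on day 12, by 0.03 to 0.21 with a median of 0.105. The cause of this offset was not tested.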

Other observations

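Some genes of the NLRP and PRAME-like families, which stand on none of the lists, are given here as single values; the choice was made with their values in view, and neither family was tested as a group. Nlrp4c, an oocyte NLR family gene, stood at -0.79, -2.85 and -2.04 on day 9 and at 0.68, -0.66 and 0.29 on day 12 in the control, sh1 and sh2 samples, and rose by 1.99 (SE 0.20, limma adjusted p = 0.0154). Nlrp14, of the same family, rose by 1.68 (SE 0.18, adjusted p = 0.0187), while Nlrp4a differed by 0.45 (SE 0.16, adjusted p = 0.253). Of the PRAME-like genes, Pramel37 (2.18, SE 0.21) and Pramel39 (2.14, SE 0.18) rose and Pramel12 differed by 0.47 (SE 0.13, adjusted p = 0.169). Oog1, an oocyte gene, was at least 2.30-fold higher on day 12 and Pramel34 at least 1.74-fold, neither being well above background on any day 9 array. Pramel34 passed without the match by vector (adjusted p = 0.0385). PRAME-like genes have close copies that a probe may not separate. Crct1, a gene of the skin barrier, rose by 2.23 (SE 0.20, adjusted p = 0.0127).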
